A study of Mus musculus with 19 samples.

Results

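Immediate early genes are switched on within minutes of a growth factor, stress or injury signal, without new protein synthesis, and 10 of them were followed here in mouse oral tumours: Fos, Fosb, Jun, Junb, Egr1, Egr2, Ier2, Arc, Atf3 and Nr4a1. They were chosen by name, with earlier results of these data known, and found in the count table by their Ensembl identifiers. Shares of all genes beside counts of members therefore give a scale and are no independent test. The table holds 55487 genes, of which 16909 had enough counts to be tested, and all 10 chosen genes were among the tested ones. Of the 10, Fos, Fosb, Jun, Junb, Egr1, Egr2, Atf3 and Nr4a1 encode DNA-binding transcription factors. Ier2 encodes a nuclear protein, and Arc encodes a protein of the cytoskeleton best known from neuronal synapses, so Arc belongs to the immediate early genes but not to the transcription factors.

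RNA was sequenced from 19 libraries of mouse oral squamous cell carcinoma. The animals, C57BL/6J, had been given the carcinogen 4-nitroquinoline 1-oxide (4NQO) in drinking water, at 100 µg/ml for 10 weeks from 6 weeks of age. All 5 groups shared this strain and carcinogen, and no genetic alteration is given in the labels. The groups were anti-PD1 with regorafenib (called the combination, 5 libraries), regorafenib (4), anti-PD1 (3), an agonist of CD40 (called anti-CD40, 3) and vehicle (4). Regorafenib blocks growth factor receptor kinases and RAF kinases, PD1 restrains T cells, and CD40 activates antigen-presenting cells. The labels state 5 mg/kg/day for regorafenib, no separate dose for the combination, no dose for either antibody, and no treatment times, and the treatment protocol does not mention the CD40 agonist, which a sample label names. Whether every library is from its own mouse is not stated, so the p-values speak only of the spread between libraries, part of which may be technical. In bulk tumour RNA, fewer cells of a type and less RNA per cell cannot be told apart.

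Fos and Jun proteins pair through leucine zippers to form AP-1, which binds DNA at genes of growth, wound repair and invasion, and Junb and Atf3 proteins can pair with the same partners. Early growth response proteins (Egr1, Egr2) are zinc finger factors, and Nr4a1 is an orphan nuclear receptor induced by growth factors and by antigen receptors of lymphocytes. ERK, p38 and JNK kinases act through SRF, its ELK partners and CREB to start these genes, and squamous epithelium is a tissue in which AP-1 is well known. Most of these transcripts appear quickly and decay quickly.

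Promoter sequences were available from RefSeq (build GRCm38.p6) for 7 of the 10 genes: Fos, Fosb, Jun, Junb, Egr2, Atf3 and Nr4a1. The 200 bases before the transcription start are shown for Fos, Fosb, Junb and Nr4a1, because these 4 had the lower group means with the combination that are described below and an element in capitals. Fos lies at chr12:85473690-85473889 on the plus strand, Fosb at chr7:19310046-19310245 on the minus strand, Junb at chr8:84978749-84978948 on the minus strand and Nr4a1 at chr15:101266646-101266845 on the plus strand. Each reads 5′ to 3′ on the gene's strand, and capitals mark matches on either strand to a CRE core, spelled TGACG, to a TATA box or to an EGR site.
Fos: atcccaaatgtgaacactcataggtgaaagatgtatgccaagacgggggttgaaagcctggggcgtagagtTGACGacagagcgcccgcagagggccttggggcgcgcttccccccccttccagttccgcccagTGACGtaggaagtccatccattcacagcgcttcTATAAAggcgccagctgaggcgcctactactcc
Fosb: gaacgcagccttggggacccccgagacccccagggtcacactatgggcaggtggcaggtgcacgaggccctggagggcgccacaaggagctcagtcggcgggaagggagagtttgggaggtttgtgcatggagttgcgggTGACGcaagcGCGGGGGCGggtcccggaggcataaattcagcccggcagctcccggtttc
Junb: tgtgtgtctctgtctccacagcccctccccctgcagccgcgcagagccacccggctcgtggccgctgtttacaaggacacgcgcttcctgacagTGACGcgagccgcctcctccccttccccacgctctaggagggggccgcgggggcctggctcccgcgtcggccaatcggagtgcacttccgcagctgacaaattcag
Nr4a1: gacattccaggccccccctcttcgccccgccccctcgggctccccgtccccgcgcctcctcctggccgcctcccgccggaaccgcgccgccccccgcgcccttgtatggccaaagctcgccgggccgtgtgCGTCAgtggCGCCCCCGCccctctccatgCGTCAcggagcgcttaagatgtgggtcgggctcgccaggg

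The CRE core, part of the element bound by CREB and ATF proteins, was present in 250 bases before the start in 5 of the 7 genes (Fos, Fosb, Junb, Atf3 and Nr4a1), against 17.8% of all 32851 RefSeq promoters. Fos had it at 129 and 66 bases before the start, Fosb at 60 and Junb at 106, while Nr4a1 had 4 copies. The EGR site (GCGTGGGCG or GCGGGGGCG) was found in Fosb and Nr4a1, against 3.06% of all promoters. A TATA box, spelled TATAAA, stood in Fos, against 15.6% of all promoters when the further spelling TATATA is counted with it. A CCAAT box (CCAAT) stood in Jun and Junb, against 33.8%. No match in the 7 genes was found for the full CRE (TGACGTCA, 1.55% of all promoters), the AP-1 site (TGACTCA or TGAGTCA, 4.46%), the ETS core (CCGGAAGT or CAGGAAGT, 5.49%) or the CArG box bound by SRF (1.47%). These matches are letters on both strands of a short window, the CRE core lies within the full CRE, and the RefSeq start of Nr4a1 lies 12577 bases from the start of the gene in the GENCODE annotation.

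Library totals ran from 16776177 to 24969492 counts, and gene levels are given as counts-per-million (CPM) after TMM scaling, which adjusts libraries for their make-up. The tumours held squamous epithelium, with all 10 of its markers present and summed to 52214 to 71967 CPM, and also skeletal muscle, whose 12 markers summed to 24068 to 49284 CPM. Muscle markers were lower in regorafenib libraries than in all others, at 24068 to 30583 CPM, against 36176 to 42104 CPM in vehicle libraries, and the combination stood at 33066 to 45060 CPM. Salivary gland RNA varied by library, from 4.47 to 16452 CPM for its summed markers. No library differed from another by less than sampling noise (smallest chi-square per degree of freedom 12.3 over 171 pairs).

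Per kilobase of exon, Junb was the most abundant of the 10 genes in vehicle tumours at 37.0 ± 2.48 CPM per kilobase (SD, n = 4). Jun followed at 29.0 ± 3.14 and Ier2 at 25.6 ± 1.48 CPM per kilobase, 2 values whose spreads overlap. Nr4a1 (8.46 ± 1.66) and Egr1 (7.35 ± 3.36) formed the next level, also within their spreads. Lower still were Fos at 4.62 ± 1.23, Atf3 at 3.22 ± 0.999 and Arc at 3.12 ± 0.444 CPM per kilobase, and the SD bars of Fos overlapped those of Egr1, Atf3 and Arc. Fosb at 0.435 ± 0.165 and Egr2 at 0.339 ± 0.0764 CPM per kilobase were the scarcest, again within their spreads. Egr2 had 13 to 61 counts and Fosb 13 to 160 counts per library, so single libraries of these genes carry wide counting error. Over all 19 libraries the range from lowest to highest was 11.1-fold for Fosb and between 1.60-fold (Jun) and 3.81-fold (Arc) for the other genes.

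**Figure D1:**
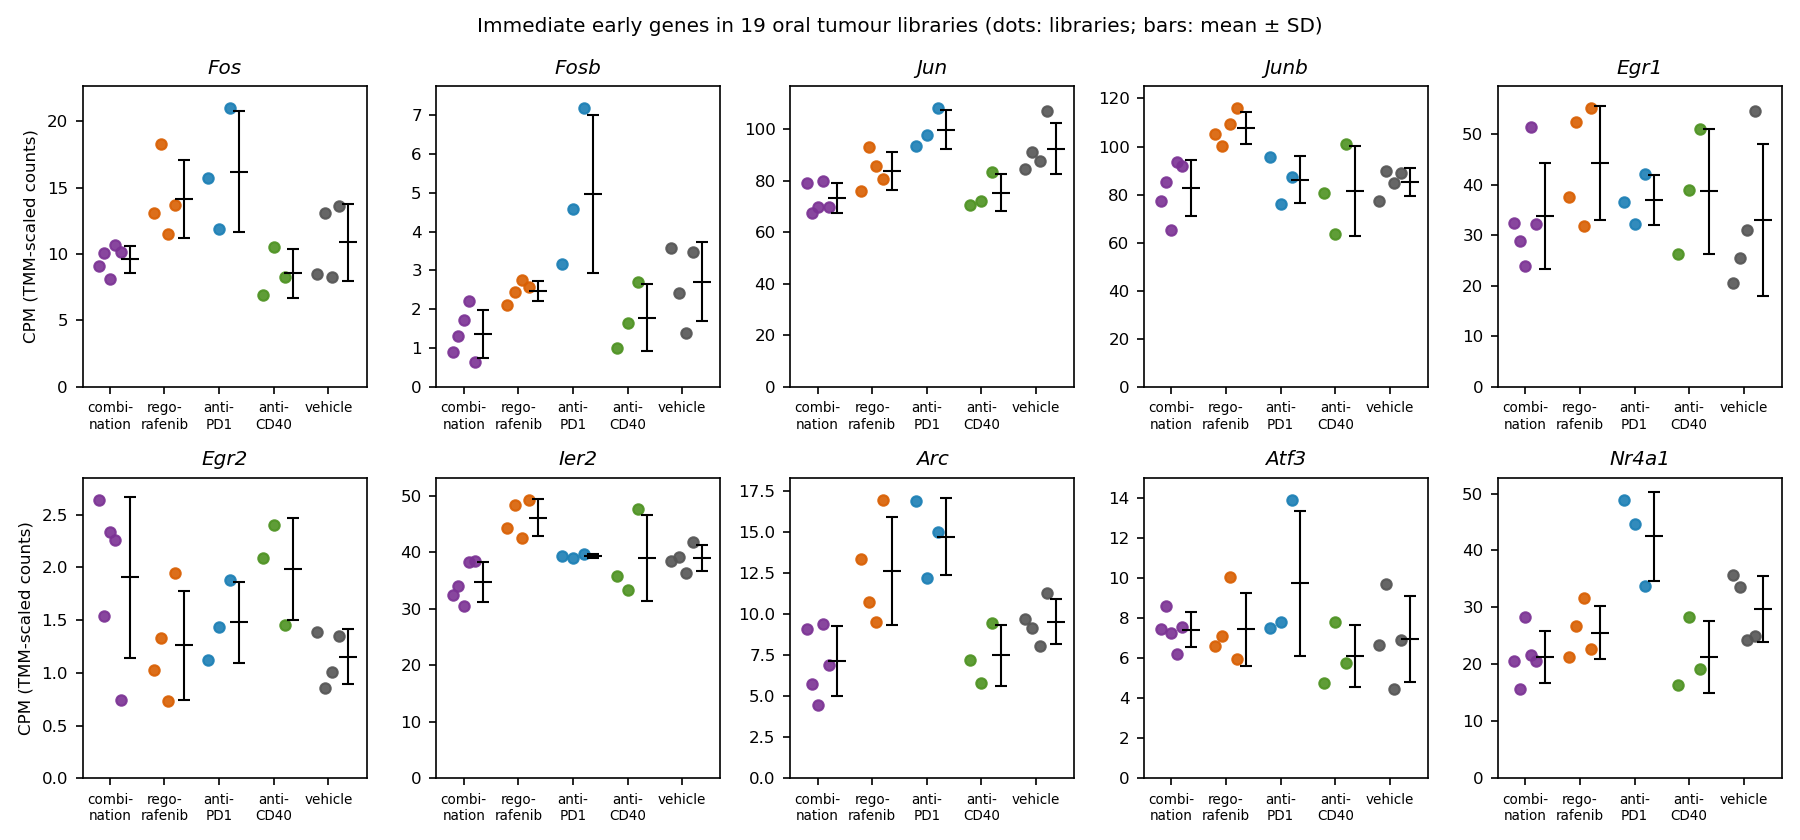
Levels of the 10 genes in CPM (y axis, from 0, own scale per gene) in the 5 groups (x axis), where each dot is a library and each bar the group's mean ± SD. Combination libraries lie below all anti-PD1 libraries for Fos, Fosb, Jun, Ier2, Arc and Nr4a1, and below all regorafenib libraries for Fos, Junb, Ier2 and Arc.

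Among the AP-1 genes, Fos (ENSMUSG00000021250.13, chr12:85473890-85477273, plus strand), the founding member of the family, was low and even with the combination. Its levels were 9.09, 10.1, 8.08, 10.6 and 10.1 CPM in combination tumours, against 13.1, 18.3, 11.5 and 13.7 CPM in regorafenib tumours and 15.7, 11.9 and 21.0 CPM in anti-PD1 tumours. Anti-CD40 tumours had 6.89, 10.5 and 8.23 CPM, against 8.50, 13.1, 8.26 and 13.6 CPM in vehicle tumours. All 5 combination libraries were thus below all 7 libraries of the separate drugs, while they overlapped vehicle. The log2 change was -0.56 ± 0.19 (SE) for combination against regorafenib. The edgeR quasi-likelihood test, with Benjamini-Hochberg adjustment over all tested genes, gave an adjusted p of 0.0632 for it, and 0.05 was the threshold. Against anti-PD1 the log2 change was -0.76 ± 0.20, with edgeR adjusted p = 0.173.

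Fosb (ENSMUSG00000003545.3, chr7:19302696-19310051, minus strand), a close relative of Fos, had the widest relative range of the 10 genes. It stood at 0.909, 1.30, 1.73, 2.21 and 0.648 CPM in combination tumours, against 2.12, 2.44, 2.76 and 2.57 CPM in regorafenib tumours and 3.16, 4.59 and 7.18 CPM in anti-PD1 tumours. The anti-CD40 values were 0.992, 1.64 and 2.70 CPM, against 3.57, 2.42, 1.38 and 3.48 CPM with vehicle. Only combination 4 reached into the range of the regorafenib libraries, and no combination library reached the lowest anti-PD1 library. The log2 change of combination against anti-PD1 was -1.88 ± 0.37 (95% interval -2.65 to -1.10), yet the edgeR adjusted p was 0.103. Against regorafenib it was -0.87 ± 0.36, with edgeR adjusted p = 0.126.

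Jun (ENSMUSG00000052684.4, chr4:95049034-95052222, minus strand), the main partner of Fos, varied little. Its combination levels were 79.3, 67.4, 69.9, 79.9 and 69.7 CPM, against 76.1, 93.2, 85.8 and 80.5 CPM with regorafenib and 93.4, 97.8 and 108 CPM with anti-PD1. Anti-CD40 libraries had 70.6, 72.1 and 83.5 CPM, against 84.4, 91.0, 87.5 and 107 CPM in vehicle libraries. Every combination and anti-CD40 library was below every vehicle library, by a log2 change of -0.34 ± 0.08 for the combination (edgeR adjusted p = 0.132) and of -0.29 ± 0.09 for anti-CD40 (edgeR adjusted p = 0.814). Against anti-PD1 the combination's log2 change was -0.45 ± 0.09, the smallest unadjusted p of the 10 genes (6.65e-05), with edgeR adjusted p = 0.103. Part of the Jun gene is shared with the antisense transcript Junos (15 to 39 counts per library), and the strand setting of the counting is not given in the sources used here.

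Junb (ENSMUSG00000052837.7, chr8:84974484-84978718, minus strand), an AP-1 member that can oppose Jun, was high with regorafenib alone. Combination tumours had 77.1, 85.1, 65.4, 93.6 and 92.0 CPM, against 105, 100.4, 109.5 and 116 CPM in regorafenib tumours. Anti-PD1 tumours had 95.5, 75.9 and 87.1 CPM and anti-CD40 tumours 80.5, 63.5 and 101 CPM, against 77.2, 89.7, 85.0 and 88.9 CPM in vehicle tumours. The 4 regorafenib libraries lay above all combination, anti-PD1 and vehicle libraries. Junb fell in combination against regorafenib by 0.38 on the log2 scale (SE 0.12), with edgeR adjusted p = 0.0438, while regorafenib against vehicle gave a log2 change of 0.34 ± 0.12 (edgeR adjusted p = 0.101). Junb shares exonic bases with Prdx2 on the opposite strand, a gene with 3670 to 6311 counts per library and a log2 change of -0.12 ± 0.07 for combination against regorafenib (edgeR adjusted p = 0.261). If counting ignored strand, reads of the shared bases cannot be assigned to either gene.

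Atf3 (ENSMUSG00000026628.13, chr1:191170296-191218039, minus strand), a stress-induced repressor and activator of the CREB and AP-1 type, overlapped between all groups. It ranged over 6.21 to 8.63 CPM in combination libraries, 5.94 to 10.1 with regorafenib, 7.49 to 13.9 with anti-PD1, 4.75 to 7.81 with anti-CD40 and 4.47 to 9.72 CPM with vehicle. The 95% interval of its log2 change was -0.47 to 0.47 for combination against regorafenib and -0.90 to 0.11 for combination against anti-PD1.

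Neither EGR gene passed a test in any comparison. Egr1 (ENSMUSG00000038418.7), a zinc finger activator that responds to ERK signalling, ranged over 24.0 to 51.5 CPM in combination libraries, 31.9 to 55.2 with regorafenib, 32.2 to 42.1 with anti-PD1, 26.3 to 51.1 with anti-CD40 and 20.6 to 54.6 CPM with vehicle. All groups overlapped, and the 95% interval of its log2 change for combination against regorafenib ran from -1.01 to 0.23. Egr2 (ENSMUSG00000037868.15, chr10:67535475-67542188, plus strand), known from nerve sheath and T cell biology, had a higher mean with the combination than with regorafenib. It had 2.64, 1.54, 2.34, 2.26 and 0.747 CPM in combination tumours and 1.03, 1.33, 0.732 and 1.95 CPM in regorafenib tumours, against 1.39, 0.856, 1.01 and 1.35 CPM in vehicle tumours. Its log2 change was 0.58 ± 0.32 against regorafenib (edgeR adjusted p = 0.242) and 0.72 ± 0.32 against vehicle (edgeR adjusted p = 0.424), and the anti-CD40 libraries at 1.45 to 2.40 CPM were all above vehicle without passing the test (log2 change 0.76 ± 0.36, edgeR adjusted p = 0.82).

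Nr4a1 (ENSMUSG00000023034.7, chr15:101254269-101274795, plus strand) was highest with anti-PD1. The combination libraries had 20.5, 15.7, 28.3, 21.7 and 20.5 CPM, against 21.2, 26.7, 31.6 and 22.7 CPM with regorafenib and 48.9, 44.6 and 33.8 CPM with anti-PD1. With anti-CD40 it stood at 16.4, 28.4 and 19.1 CPM, against 35.7, 33.6, 24.3 and 25.1 CPM with vehicle. All 3 anti-PD1 libraries exceeded all 12 combination, regorafenib and anti-CD40 libraries, and overlapped vehicle. For combination against anti-PD1 the log2 change was -0.99 ± 0.20 (95% interval -1.42 to -0.57), with edgeR adjusted p = 0.107. Against regorafenib it was -0.26 ± 0.19, with edgeR adjusted p = 0.39.

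Ier2 (ENSMUSG00000053560.5, chr8:84661331-84662852, minus strand), a nuclear protein, had the smallest adjusted p of the 10 genes between combination and regorafenib. It had 32.4, 34.1, 30.5, 38.2 and 38.4 CPM in combination tumours, against 44.2, 48.4, 42.6 and 49.2 CPM in regorafenib tumours. Anti-PD1 tumours had 39.4, 38.9 and 39.6 CPM and anti-CD40 tumours 35.7, 33.4 and 47.6 CPM, against 38.4, 39.2, 36.4 and 41.8 CPM in vehicle tumours. Regorafenib libraries were above all vehicle libraries and all combination libraries, and the combination overlapped vehicle. Ier2 fell in combination against regorafenib by 0.41 on the log2 scale (SE 0.09, edgeR adjusted p = 0.0116), while regorafenib against vehicle gave a log2 change of 0.24 ± 0.10 (edgeR adjusted p = 0.122).

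Arc (ENSMUSG00000022602.14, chr15:74669083-74672570, minus strand) was the member that passed the interaction test described below. Its levels were 9.09, 5.74, 4.46, 9.43 and 6.92 CPM in combination tumours, against 13.4, 10.8, 9.52 and 17.0 CPM with regorafenib and 16.9, 12.2 and 15.0 CPM with anti-PD1. The anti-CD40 libraries had 7.21, 5.79 and 9.48 CPM, against 9.69, 9.17, 8.04 and 11.3 CPM in the vehicle libraries. The 7 libraries of the separate drugs were all above the 5 of the combination, and the 3 with anti-PD1 were above all vehicle libraries. Arc fell in combination against regorafenib by 0.82 on the log2 scale (SE 0.21, edgeR adjusted p = 0.0226). Against anti-PD1 its log2 change was -1.04 ± 0.23 (edgeR adjusted p = 0.12). As Arc is known from neurons, the summed level of 6 neuron markers, of which 3 were tested, is given beside it: 30.8 to 38.3 CPM in combination libraries, 38.2 to 51.6 CPM with regorafenib, 33.9 to 38.4 CPM with anti-PD1, 26.9 to 41.8 CPM with anti-CD40 and 34.6 to 42.7 CPM with vehicle. Of those 3, Tubb3 fell in combination against regorafenib (log2 change -0.54, edgeR adjusted p = 0.0291) and Snap25 rose (1.04, edgeR adjusted p = 0.0198). Tubb3 made up most of the sum, with a mean of 28.4 CPM with the combination and 41.2 CPM with regorafenib. The mean log2 CPM of the 6 markers went the other way, at -0.04 to 0.34 with the combination and -0.50 to -0.08 with regorafenib. The part of neuronal RNA in Arc's change was not tested.

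Read by comparison, Ier2, Arc and Junb fell in combination against regorafenib, 3 of the 10 genes, where 4.79% of all tested genes fell and 10.5% changed in either direction. At an unadjusted p under 0.05 stood 6 of 10, where 28.1% of all genes did, and DESeq2 called 4 of 10, with Fos as the further gene (adjusted p = 0.032), where it called 16.8% of the genes it adjusted. Fos, Ier2, Junb and Arc were lower with no overlap of the groups, 4 of 10, where 6.74% of all genes were. The log2 change was below 0 for 9 of the 10 genes, all but Egr2, where 48.9% of all genes were above 0. Of these 9, Atf3 lay at -0.00 ± 0.22. The median was -0.39 for the 10 genes, against -0.01 over all genes. The muscle markers moved with this contrast. Their sum was 33066 to 45060 CPM with the combination and 24068 to 30583 CPM with regorafenib, and 7 of the 12 rose. Squamous markers summed to 55457 to 69630 CPM with the combination and 67854 to 70400 CPM with regorafenib, and 3 of the 10 fell. Macrophage markers summed to 110 to 151 CPM with the combination and 90.0 to 108 CPM with regorafenib, without overlap, and 2 of the 8 rose. Fibroblast markers had log2 changes above 0 for all 6, and 1 passed. Endothelial markers had them above 0 for all 7, with 4 at an unadjusted p under 0.05 and 0 passing. Neutrophil markers summed to 235 to 2528 CPM with the combination and 1456 to 3074 CPM with regorafenib, and 0 of 5 passed. The part of these markers, other than muscle, in the result was not tested. With the muscle score as a covariate 0 of the 10 genes passed edgeR's test, and 1 of all 16909 genes did, against 1768 without it. On that score, the mean log2 CPM of the 12 markers, the regorafenib libraries lay at 10.24 to 10.65, below every combination library (lowest 10.67) and every vehicle library (lowest 10.76), so in those contrasts the drug and the score cannot be told apart well. Ier2 then had a log2 change of -0.21 (edgeR adjusted p = 0.479, over all alternatives 0.00155 to 0.479). Arc had -0.44 (edgeR adjusted p = 0.583, over all alternatives 0.00286 to 0.583) and Junb had -0.04 (edgeR adjusted p = 0.941, over all alternatives 0.0208 to 0.941). With each of the 9 libraries left out in turn, Ier2 passed in 9 cases. Arc passed in 6, all but those without combination 3, regorafenib 1 and regorafenib 4, and Junb passed in 2, those without combination 4 and combination 5.

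In combination against anti-PD1, by edgeR 0 of the 10 genes passed, where 0.00591% of all genes did. At an unadjusted p under 0.05 the count was 5 of 10 (Fos, Fosb, Jun, Arc and Nr4a1), where 9.94% of all genes stood below that value. DESeq2 called these 5, with adjusted p from 0.00105 (Fosb and Nr4a1) to 0.0489 (Fos), where it called 0.75% of the genes it adjusted. Fos, Fosb, Jun, Ier2, Arc and Nr4a1 were lower in every combination library than in every anti-PD1 library, 6 of 10, where 2.84% of all genes were. The median log2 change was -0.42 over the 10 genes and -0.00 over all genes. Muscle markers overlapped between these groups (33066 to 45060 CPM and 35536 to 42150 CPM), and with the muscle covariate the log2 changes were -1.81 for Fosb, -1.02 for Nr4a1, -0.98 for Arc, -0.77 for Fos and -0.44 for Jun, 0 of which passed edgeR's test (smallest adjusted p = 0.0503). With it, 9 of 16909 genes passed, against 1 without it. Median log2 changes of other marker lists were -0.20 for macrophages (2 of 8 above 0), -0.28 for fibroblasts (1 of 6) and -1.12 for salivary gland (1 of 8). They were 0.07 for squamous epithelium (8 of 10 above 0), 0.12 for T cells (6 of 8) and 0.21 for neutrophils (3 of 5). For endothelium and neurons they were -0.03 and -0.01. Of these markers 0 passed edgeR's test, and their part in the result was not tested.

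**Figure D2:**
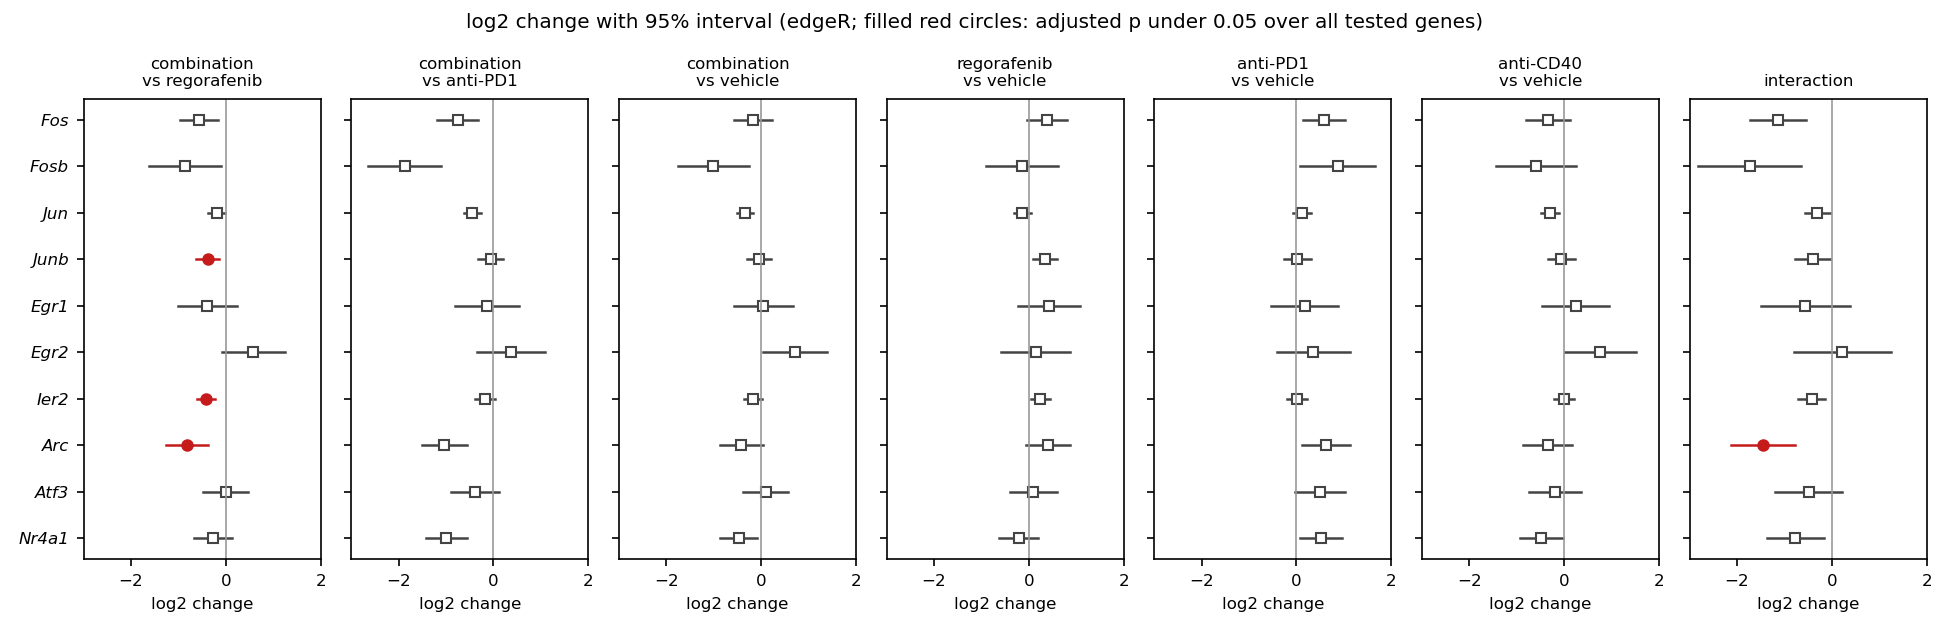
The log2 change of each gene (x axis) with its 95% interval in 7 comparisons, the genes in rows. Filled red circles mark an edgeR adjusted p under 0.05, which held for Junb, Ier2 and Arc in combination against regorafenib and for Arc in the interaction, and every point but that of Egr2 lies at or below 0 in the panels of the combination against either drug.

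The interaction asks whether regorafenib's effect with anti-PD1 differs from its effect without anti-PD1. For Arc the log2 change was -1.04 in combination against anti-PD1 and 0.41 in regorafenib against vehicle, a difference of -1.45 ± 0.32 (95% interval -2.12 to -0.78, edgeR adjusted p = 0.0482). Arc was 1 of 10 genes to pass, where 0.627% of all genes did, 0.177% with a difference below 0. Fos came next, with a difference of -1.14 ± 0.28 (edgeR adjusted p = 0.0675), then Fosb with -1.73 ± 0.52 (edgeR adjusted p = 0.116). In all, 7 of the 10 genes had an unadjusted p under 0.05, where 15.8% of all genes did. Of the 10 differences 9 lay below 0, where 49.3% of all genes lay above 0, with a median of -0.53 against -0.00 over all genes. DESeq2 called Arc, Fos and Fosb, 3 of 10, where it called 3.93% of the genes it adjusted. Arc's call lies close to the threshold. The edgeR test with a non-robust prior gave an adjusted p of 0.0523, and edgeR without filtering gave 0.0943. The muscle covariate gave 0.255 for a difference of -1.02. Muscle markers moved with the interaction too, 12 of 12 having a difference above 0 and 2 of 12 passing. T cell markers had differences below 0 for all 8, with a median of -0.78, 2 of 8 at an unadjusted p under 0.05 and 0 passing edgeR's test, and their part in the result was not tested. Over all alternatives Arc's adjusted p ran from 0.00169 (DESeq2) to 0.255. With each library of the 4 groups left out in turn, the call held in 2 of 16 cases, without anti-PD1 2 and without regorafenib 3, and the difference stayed between -1.57 and -1.27.

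Against vehicle no treatment gave a call by edgeR among the 10 genes. For regorafenib 0 of 10 passed, where 6.32% of all genes did, and 2 of 10 (Junb and Ier2) had an unadjusted p under 0.05, where 24.5% of all genes did. DESeq2 called 0, where it called 11% of the genes it adjusted. Junb and Ier2 were higher in every regorafenib library than in every vehicle library, 2 of 10, where 8.63% of all genes were. In a fit of the regorafenib and vehicle libraries alone, Junb passed edgeR's test (log2 change 0.34, adjusted p = 0.0176), 1 of 10 genes, in a fit where 1184 of 15944 genes passed. Muscle markers were lower with regorafenib, as given above, and with the muscle covariate the log2 change was 0.00 for Junb and 0.05 for Ier2. Other markers moved as well. Squamous markers had a median log2 change of 0.32 (9 of 10 above 0, 5 passed) and T cell markers one of 0.89 (8 of 8, 3 passed). Medians were -0.09 for macrophages (1 of 8, 1 fell), -0.30 for fibroblasts (0 of 6, 1 fell) and -0.29 for endothelium (0 of 7, 0 passed). For neutrophils it was 0.59 (5 of 5, 0 passed). The part of these other markers in the members' values was not tested.

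For anti-PD1 0 of 10 genes passed edgeR's test against vehicle, as did 0% of all genes. DESeq2 called 0 of 10 and 0.404% of the genes it adjusted. All 10 log2 changes were above 0, with a median of 0.42, where 49.8% of all genes were above 0 and their median was -0.00. Markers of some other cells had changes above 0 in the same contrast, with 0 passing edgeR's test. T cell markers had a median of 0.88 (7 of 8 above 0, 5 at an unadjusted p under 0.05) and summed to 16.6 to 25.8 CPM with anti-PD1 and 17.6 to 20.5 CPM with vehicle. Macrophage markers had a median of 0.39 (7 of 8 above 0, 5 at an unadjusted p under 0.05) and summed to 125 to 164 CPM with anti-PD1 and 103 to 141 CPM with vehicle. Fibroblast markers had a median of 0.44 (6 of 6 above 0, 2 at an unadjusted p under 0.05) and summed to 789 to 1154 CPM with anti-PD1 and 702 to 903 CPM with vehicle. Salivary gland markers had a median of 1.78 (7 of 8 above 0, 0 at an unadjusted p under 0.05), and heat shock genes one of 0.14 (10 of 10 above 0, 1 at an unadjusted p under 0.05). Medians were -0.03 for squamous markers (4 of 10 above 0), -0.06 for muscle (4 of 12) and -0.06 for endothelium (3 of 7). The part of these markers and heat shock genes in the members' values was not tested. Arc (0.62 ± 0.24), Fos (0.58 ± 0.21), Nr4a1 (0.51 ± 0.21) and Fosb (0.87 ± 0.37) had an unadjusted p under 0.05, 4 of 10, where 9.32% of all genes did. Arc was higher with no overlap, 1 of 10, where 4.59% of all genes were. Of the 3 anti-PD1 libraries, library 3 was the highest for Fos, Fosb, Jun, Egr1, Egr2, Ier2 and Atf3. Junb and Ier2 had log2 changes of 0.02 and 0.01, with 95% intervals of -0.26 to 0.30 and -0.20 to 0.23.

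The combination against vehicle gave 0 of 10 calls by edgeR, where 0.0237% of all genes passed, and 4 of 10 genes at an unadjusted p under 0.05, where 10.8% of all genes stood. These were Jun (-0.34 ± 0.08), Fosb (-1.01 ± 0.36), Nr4a1 (-0.48 ± 0.19) and, in the other direction, Egr2. DESeq2 called Jun (adjusted p = 0.0257), 1 of 10, where it called 0.62% of the genes it adjusted. Jun was also the gene lower in all combination libraries than in all vehicle libraries, 1 of 10, where 1.91% of all genes were. Anti-CD40 against vehicle likewise gave 0 of 10 calls by edgeR, where 0% of all genes passed, and by DESeq2, where 0.0122% of the genes it adjusted did. At an unadjusted p under 0.05 stood Jun (-0.29 ± 0.09), Nr4a1 (-0.48 ± 0.22) and Egr2 (0.76 ± 0.36), 3 of 10, where 6.06% of all genes did. Without overlap, Jun was lower, 1 of 10, where 2.57% of all genes were, and Egr2 higher, 1 of 10, where 3.29% were. These comparisons share the vehicle libraries, so their values are not independent of each other.

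Asked whether any of the 5 groups differed, edgeR's test passed Jun (adjusted p = 0.0263), Arc (0.0358), Nr4a1 (0.0386), Fosb (0.0412) and Fos (0.0492), 5 of 10, where 4.49% of all genes passed. Ier2 (edgeR adjusted p = 0.0713) and Junb (0.131) did not pass, nor did Egr2 (0.309), Atf3 (0.373) and Egr1 (0.74). At an unadjusted p under 0.05 stood 7 of 10, where 25.9% of all genes did. DESeq2 called 6 of 10, where it called 17.2% of the genes it adjusted. With the muscle covariate edgeR called 0 of the 10, where it called 14 of 16909 genes (760 without it). Without the filter on low counts it called 1, Jun, where it called 733 of 32883 genes. With the replicate number as a block it called 1 of the 10, where it called 210 of 16909 genes. With each library left out in turn the count of members ran from 0, without regorafenib 1 or regorafenib 4, to 6, without anti-CD40 2 or anti-CD40 3. Those fits called 69 of 16862, 39 of 16870, 1100 of 17192 and 1924 of 17176 genes in that order.

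Other genes of the same families and pathways were read from lists chosen by name, also with earlier results of these data known. Of 11 tested relatives of the AP-1, EGR and NR4A families, 2 fell in combination against regorafenib, where 4.79% of all genes fell: Jund, a constitutive AP-1 partner (-0.39 ± 0.08, edgeR adjusted p = 0.00828), and Fosl1, a Fos relative of invasive carcinoma cells (-0.72 ± 0.21, edgeR adjusted p = 0.0358). Jund averaged 95.8 ± 8.64 CPM with the combination (SD, n = 5), against 125 ± 9.58 CPM with regorafenib (SD, n = 4). The list's median log2 change was -0.12, against -0.01 over all genes. For the interaction, Fosl1 had a difference of -1.35 ± 0.31 (edgeR adjusted p = 0.0551), and 0 of the 11 passed edgeR's test, with 3 at an unadjusted p under 0.05, where 15.8% of all genes stood.

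Among 30 tested genes of the other immediate early list, 6 fell in combination against regorafenib and 0 rose, where 4.79% of all genes fell and 10.5% changed in either direction. They included Ptgs2, the inducible cyclooxygenase, which averaged 3.96 ± 0.80 CPM with the combination (SD, n = 5), against 12.3 ± 5.77 CPM with regorafenib (SD, n = 4), a log2 change of -1.63 ± 0.31 (edgeR adjusted p = 0.00678). Dusp1, a phosphatase that switches off p38 and JNK, fell by 0.48 on the log2 scale (SE 0.11, edgeR adjusted p = 0.0147). Ier5 (-0.36), the growth regulator Myc (-0.38) and Zfp36, which destabilises inflammatory mRNAs (-0.24), fell as well, with edgeR adjusted p of 0.016, 0.0192 and 0.0336. Dusp1 was also the gene of the list that fell in combination against vehicle, 1 of 30, where 0.0237% of all genes passed. It stood at 51.4 ± 2.73 CPM with the combination and 87.6 ± 8.35 CPM with vehicle, a log2 change of -0.77 ± 0.11 (edgeR adjusted p = 0.0138). Ptgs2 passed the interaction test with a difference of -2.74 ± 0.46 (edgeR adjusted p = 0.0192), 1 of 30 genes, where 0.627% of all genes passed. In regorafenib against vehicle, 3 of the 30 rose and 0 fell, where 562 of 16909 genes rose and 6.32% changed in either direction: Ptgs2 (1.82 ± 0.33, edgeR adjusted p = 0.00828), Rhob, a small GTPase (0.33 ± 0.09, adjusted p = 0.0335), and Plk2, a polo-like kinase (0.50 ± 0.14, adjusted p = 0.0429).

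Of 11 feedback regulators of the MAP kinase pathway, 2 rose in regorafenib against vehicle, where 562 of 16909 genes rose and 6.32% changed. Dusp6, the phosphatase of ERK, averaged 31.3 ± 5.35 CPM with regorafenib and 20.0 ± 2.65 CPM with vehicle (SD, n = 4 each). Its log2 change was 0.65 ± 0.12 (SE, edgeR adjusted p = 0.00745), and Phlda1 rose by a log2 change of 0.68 ± 0.16 (edgeR adjusted p = 0.023). Dusp6 averaged 28.7 ± 3.35 CPM with anti-PD1 and 26.6 ± 2.91 CPM with anti-CD40 (SD, n = 3 each). Its log2 changes there against vehicle, 0.52 and 0.41, did not pass edgeR's test (adjusted p = 0.197 and 0.814). The interaction of Dusp6 was -0.84 ± 0.17 (edgeR adjusted p = 0.0377), 1 of 11 genes to pass, where 0.627% of all genes did. In combination against regorafenib the ETS factor Etv5 rose (0.36 ± 0.10, edgeR adjusted p = 0.0354), 1 of 11, where 10.5% of all genes changed in either direction. Among 22 upstream regulators, 0 passed edgeR's test in combination against regorafenib (6 at an unadjusted p under 0.05, where 28.1% of all genes stood), and the list's median log2 change there was -0.00, that of all genes being -0.01. Srf itself averaged 34.2 ± 1.34 CPM with the combination (SD, n = 5), against 41.5 ± 1.80 CPM with anti-PD1 (SD, n = 3), a log2 change of -0.28 ± 0.07 (edgeR adjusted p = 0.139). With regorafenib against vehicle 2 of the 22 passed, where 6.32% of all genes did. Map2k1 rose by 0.18 (edgeR adjusted p = 0.0496) and Mapk8, which encodes JNK1, fell by 0.28 on the log2 scale (edgeR adjusted p = 0.0414).

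Of 15 genes known as targets of AP-1 or EGR proteins, 3 rose in regorafenib against vehicle, where 562 of 16909 genes rose and 6.32% changed. They were Nab1, a corepressor of EGR proteins (0.28 ± 0.05, edgeR adjusted p = 0.00926), Plau, the urokinase gene (0.84 ± 0.17, edgeR adjusted p = 0.0143), and Areg, an EGF receptor ligand (1.19 ± 0.34, edgeR adjusted p = 0.0454). Nab1 (-0.17 ± 0.05, edgeR adjusted p = 0.0402) and Areg (-1.06 ± 0.31, edgeR adjusted p = 0.0424) fell in combination against regorafenib, 2 of 15, where 4.79% of all genes fell. The median interaction of the 15 targets was -0.68, with 1 of 15 above 0 and 0 passing edgeR's test (6 at an unadjusted p under 0.05, where 15.8% of all genes stood). Heat shock genes, induced by cell stress, were read beside them. Hspb1 (-0.32 ± 0.07, edgeR adjusted p = 0.013) and Dnajb1 (-0.30 ± 0.08, edgeR adjusted p = 0.0214) fell in combination against regorafenib, 2 of 10 genes, beside the same 4.79% of all genes. Dnajb1 passed the interaction test (-0.54 ± 0.12, edgeR adjusted p = 0.0482), 1 of 10, where 0.627% of all genes passed. The summed level of the 10 heat shock genes was 2081 to 2777 CPM with the combination, 2453 to 2777 CPM with regorafenib, 2280 to 2618 CPM with anti-PD1 and 2041 to 2520 CPM with vehicle, and its part in the members' values was not tested. With the muscle covariate, edgeR called 1 of all 16909 genes in combination against regorafenib (1768 without it), 14 in regorafenib against vehicle (1069 without it) and 8 in the interaction (106 without it). At most 1 of the list calls in combination against regorafenib therefore holds with it, and which list genes remain in these comparisons is not given here.

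In combination against anti-PD1, edgeR passed 0 genes of the 6 lists, with 3 of 11 family members, 14 of 30 other immediate early genes, 2 of 11 feedback regulators, 3 of 22 upstream regulators, 2 of 15 targets and 4 of 10 heat shock genes at an unadjusted p under 0.05, where 9.94% of all genes stood. The lists' median log2 changes in that order were -0.17, -0.13, -0.09, 0.03, -0.29 and -0.19, against -0.00 over all genes. Dusp1 had the smallest adjusted p, with 51.4 ± 2.73 CPM with the combination (SD, n = 5), against 85.2 ± 12.3 CPM with anti-PD1 (SD, n = 3), a log2 change of -0.73 ± 0.12 (edgeR adjusted p = 0.0688). For anti-PD1 and for anti-CD40 against vehicle edgeR also passed 0 genes of these lists, and Dusp1 again had the smallest adjusted p with anti-CD40 (-0.68, edgeR adjusted p = 0.185).

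**Figure D3:**
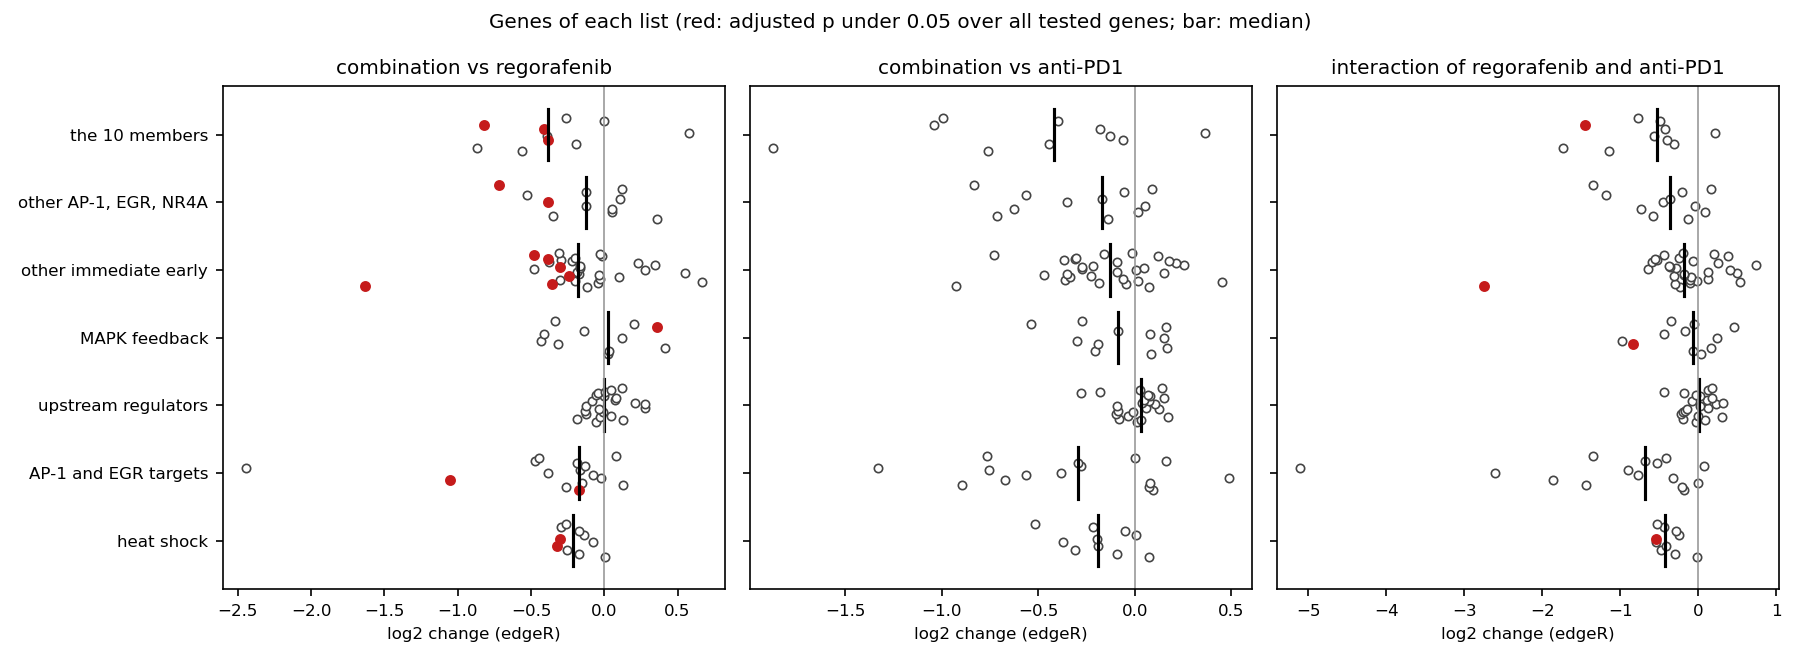
The log2 change (x axis, edgeR) of every tested gene in each list (rows) for combination against regorafenib, combination against anti-PD1 and the interaction. Red points passed at an adjusted p under 0.05, open points did not, and bars mark each list's median, which lies at -0.39, -0.42 and -0.53 for the 10 members.

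Within groups, no pair of the 10 genes varied together from library to library beyond the adjusted threshold. Each library's deviation from its group mean in log2 CPM was correlated for 45 pairs of genes over 19 libraries, with permutation within treatment groups. The highest values were Junb with Ier2 (Pearson's r = 0.80, Spearman's rho = 0.73), Jun with Egr1 (r = 0.72, rho = 0.65) and Junb with Arc (r = 0.66, rho = 0.57). By r, 0 of 45 pairs passed adjustment over the 45 pairs (adjusted permutation p = 0.11 for Junb with Ier2), and by rho 0 pairs did (adjusted permutation p = 0.193 for that pair), while 7 had an unadjusted permutation p of r under 0.05. Without the 2 libraries farthest from the median of Junb, its r with Ier2 was 0.70 and with Arc 0.48, and r of Jun with Egr1 was 0.60 when treated likewise. In all, 31 of 45 correlations were above 0, with a median of 0.22, against -0.00 for pairs among a systematic sample of the tested genes. Nr4a1 had r = -0.14 to the mean of the other 9 genes, where Jun had 0.71 and Egr1 0.58. Ier2 and Junb lie on the same chromosome, and all values share each library's depth and tissue make-up.

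**Figure D4:**
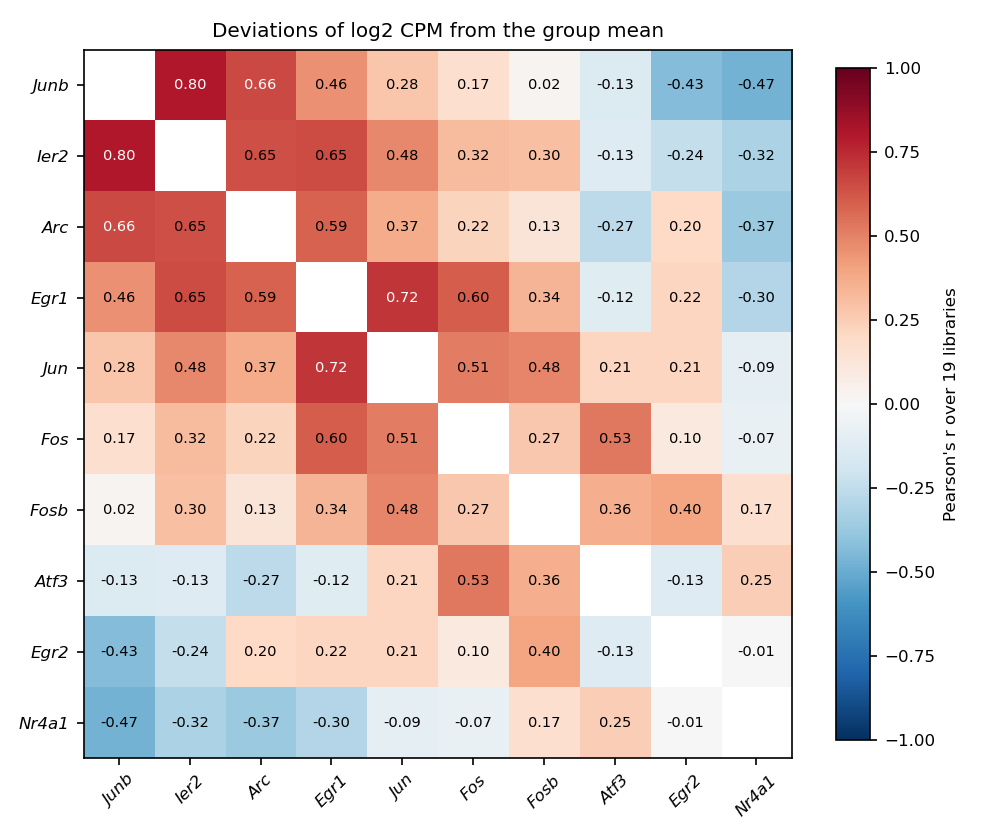
Pearson's r between each pair of the 10 genes, over the deviations of log2 CPM from the group mean in 19 libraries (colour scale from -1 to 1, both axes listing genes). The order of genes was set by hand. The upper left block of Junb, Ier2, Arc, Egr1, Jun, Fos and Fosb is positive throughout, at 0.02 to 0.80. The lowest value is -0.47 for Junb with Nr4a1, and 0 of 45 pairs passed adjustment.

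Outside the 10 genes, those with deviations most like the members' mean deviation over the 19 libraries included Kat5 (r = 0.82), Lpar3, Tle6 and Tchp (0.79 each), Apol10b (0.78), Gm12551 (0.77) and Lzts1 (0.76). They are among the highest of all tested genes with a mean of at least 1 CPM and are given as a description only.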

How the data were processed

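RNA was measured in 19 oral tumour libraries, grouped by their treatment label. A stranded kit for polyadenylated RNA was used, per the labels' protocols. The submitters' processing notes name cutadapt 2.4, STAR 2.7.2a and GRCm38, but no source used here gives the counting tool, strand setting or annotation. The authors deposited whole-number counts per gene, not normalized, for 55487 Ensembl genes. Symbols from GENCODE M21 matched 55141 of them.

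Genes were filtered with filterByExpr by group, which left 16909 genes with 99.9% of counts, and libraries were scaled by TMM. The edgeR 4.0.16 quasi-likelihood model (R 4.3.3, robust prior) had a mean per group over all 19 libraries, which share an estimate of spread (14 residual degrees of freedom, common dispersion 0.0345). Its two-sided p-values were adjusted after Benjamini and Hochberg over the tested genes, at 0.05. The SE is the absolute log2 change over the square root of F. The interaction is combination minus anti-PD1, less regorafenib minus vehicle, in log2. Scripts were tested on simulated data. Covariation used 100000 permutations within groups, because deviations sum to 0 in each.

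Members and gene lists were chosen with earlier results of these data known. All members were named, with the genes of each list that passed (at most 5, by p; otherwise that with the smallest p) and the 8 genes most like the members, of which 1 is not reported here. Alternatives were RLE scaling, an unfiltered table, DESeq2 1.42.0, a fit of the compared groups alone, a replicate block, muscle or salivary scores as covariates, and each library left out. Figures were drawn with matplotlib 3.10.9.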

Additional observations from a re-analysis of the deposited data

Results flagged for a closer look

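The effect of regorafenib on Arc differed with and without anti-PD1, by -1.45 on the log2 scale (edgeR interaction test, adjusted p = 0.0482), where 0.627% of all genes passed. The log2 change was -1.04 in combination against anti-PD1, where all 5 combination libraries were below all 3 anti-PD1 libraries, and 0.41 in regorafenib against vehicle. The call did not hold without the filter on low counts (adjusted p = 0.0943), with a non-robust prior (0.0523) or with the muscle covariate (0.255), and held in 2 of 16 fits with a library left out. Muscle markers (2 of 12 passing, above 0) moved with the interaction, and their part in it was not tested beyond that covariate. Of 30 sets of 4 or 5 libraries of a gene in a group, 0 held a library far from the others. The anti-PD1 and anti-CD40 groups, with 3 libraries each, were not examined in this way.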

How the results depend on the processing

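Over the alternatives that kept all libraries, 530 of 560 member values kept their direction and side of the threshold, 12 came to pass, 8 no longer passed and 10 reversed. In combination against regorafenib 3 of 10 members passed, but 1 on the unfiltered table and 0 with the muscle covariate. In combination against anti-PD1 the count was 0, but 1 without the filter (Jun) and 5 by DESeq2. In the interaction it was 1, but 0 without the filter, 0 with the muscle covariate, 0 with a non-robust prior and 3 by DESeq2. Against vehicle it was 0 throughout, but 1 for regorafenib in a fit of those groups alone and 1 for the combination by DESeq2. For any difference among groups it was 5, but 1 without the filter (733 of 32883 genes) and 0 with the muscle covariate (14 of 16909 genes). With the replicate block it was 1 (210 of all genes, against 760 without it). The replicate numbers did not clearly pair libraries: deviations of 33 same-numbered pairs correlated at -0.45 to 0.54 (15 of 33 above 0.1), and 6 of 19 libraries matched their own number best. This check cannot exclude a pairing of some of them. The numbers are those of the sample titles. The count columns carry others for vehicle 3 and 4 (TC_4 and TC_7) and regorafenib 3 and 4 (TR_4 and TR_5), and neither the check nor the block was run on those. The block changed no other count of members by more than 1.5 times (3 in combination against regorafenib, 1 in the interaction). Of 45 pairs, 0 passed in covariation, but 7 when permuting over all libraries. That setting, the non-robust prior and covariation with a library left out were added after seeing the data. The cause of these changes was not tested.

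Values near 0 reversed: Atf3 in combination against regorafenib (0.0052 with RLE scaling, 0.0099 without the filter, 0.0027 with the block, 0.0038 with the salivary covariate, 0.0048 by DESeq2), Ier2 in anti-CD40 against vehicle (0.041 with the block, 0.00092 with the salivary covariate), and, with the muscle covariate, Junb (-0.027) and Ier2 (-0.0083) in anti-PD1 against vehicle and Egr2 in the interaction (-0.087).

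With each library left out, 590 of 640 member values kept direction and side, and 25 reversed. Counts of members passing ran from 1 to 3 in combination against regorafenib (1 without combination 3, regorafenib 1 or regorafenib 4), from 0 to 2 in the interaction, from 0 to 6 for any difference and from 0 to 0 elsewhere, and pairs in covariation from 0 to 2. Log2 changes that reversed ran as follows. In combination against regorafenib Atf3 ran from -0.10 to 0.18, and against anti-PD1 Junb from -0.14 to 0.019. In combination against vehicle Egr1 ran from -0.16 to 0.40, Atf3 from -0.065 to 0.30 and Junb from -0.092 to 0.030. In regorafenib against vehicle Fosb ran from -0.35 to 0.026, Egr2 from -0.15 to 0.32 and Atf3 from -0.083 to 0.30. In anti-PD1 against vehicle Junb ran from -0.062 to 0.10, Egr1 from -0.0023 to 0.53 and Ier2 from -0.018 to 0.049. In anti-CD40 against vehicle Ier2 ran from -0.17 to 0.11, Junb from -0.24 to 0.10, Egr1 from -0.013 to 0.60 and Atf3 from -0.40 to 0.015. Depth limits Fosb and Egr2 most, with as few as 13 counts in a library.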
